A study of Mus musculus with 18 samples.

Results

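Type I interferon-stimulated antiviral genes are the genes that cells switch on after they sense virus-like nucleic acid or meet a type I interferon. A set of 37 such genes was chosen by name and followed across the bone marrow of 18 mice. A gene was measured by the probesets that the array annotation gives to its symbol alone, and where it had several, the one with the highest mean over all arrays stood for it. By this rule 35 of the 37 genes had a value, of 18194 genes on the array, and all 35 were above the limit on dim genes that kept 14505. Isg15 had only a probeset shared with another gene model and Ifi44 was absent from the annotation, so neither has a value.

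All mice were C57Bl6 and gave bone marrow cells that were flash-frozen, with 1 array per mouse, each titled a biological replicate. The groups were 4 WT mice, 4 CCAT2-G mice and 4 CCAT2-T mice, engineered to overexpress 1 or the other form of the long non-coding RNA CCAT2 throughout the body, and 6 CCAT2-GT mice. The labels call the CCAT2-GT mice overexpressing too, but do not say what the GT genotype is. The labels put the 8 CCAT2-G and CCAT2-T mice in a DRAI- group and the 6 CCAT2-GT mice in a DRAI+ group, and leave the term DRAI unexplained. The series title concerns myeloid malignancy, and the design sets DRAI+ and DRAI- marrow against WT and against each other, with CCAT2-G and CCAT2-T as a further contrast. The labels name neither the promoter that drives CCAT2 nor the founder lines nor the ages of the mice.

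Type I interferons bind a receptor made of IFNAR1 and IFNAR2, which activates the kinases JAK1 and TYK2. These activate a complex that holds STAT2 and IRF9 and binds the interferon-stimulated response element (ISRE) in the promoters of target genes. The targets include the pathway's own amplifiers, such as IRF7, its brakes, such as USP18, sensors of foreign RNA and DNA, and proteins that block steps of a viral life cycle. In bone marrow, interferon acts on stem cells as well as on mature blood cells, and plasmacytoid dendritic cells are a strong source of it.

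The promoters were searched for this element, and the stretches that follow were chosen to show it in genes described below. They come from RefSeq promoters on GRCm38.p6, which hold 250 bases before and 50 bases after a gene's start, and 27 of the 37 genes matched one. The core of the ISRE was searched as GAAANNGAAA, with N for any base, or as its reverse TTTCNNTTTC, with overlapping matches allowed. It was found in 12 of the 27 genes (44.4%), Isg15 among them, against 3.98% of all 26994 genes and 3.43% of all 32817 promoters. The STAT dimer element TTCNNNGAA, which reads the same on both strands, was found in 5 of the 27 genes (18.5%), against 9.55% of all genes and 8.29% of all promoters, and its matches may share bases with those of the ISRE. A match is a description of these letters and not a measured binding site. Each stretch is given 5′ to 3′ on the strand of its gene, and capitals mark the ISRE match. The stretches lie at chr19:34640755-34640843 (plus strand) for Ifit1, chr19:34583343-34583446 (plus strand) for Ifit3, chr12:26456533-26456602 (minus strand) for Rsad2, chr8:71537557-71537632 (minus strand) for Bst2, chr7:104465194-104465259 (minus strand) for Trim30a and chr10:128270248-128270315 (plus strand) for Stat2.
Ifit1: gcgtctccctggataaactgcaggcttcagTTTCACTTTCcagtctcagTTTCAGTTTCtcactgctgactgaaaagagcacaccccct
Ifit3: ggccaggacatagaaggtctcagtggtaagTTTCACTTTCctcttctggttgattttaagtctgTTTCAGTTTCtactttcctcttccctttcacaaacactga
Rsad2: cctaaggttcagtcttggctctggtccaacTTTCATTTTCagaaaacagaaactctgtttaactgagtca
Bst2: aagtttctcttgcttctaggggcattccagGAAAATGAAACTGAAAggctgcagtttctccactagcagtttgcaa
Trim30a: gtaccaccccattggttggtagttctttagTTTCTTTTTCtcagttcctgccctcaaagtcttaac
Stat2: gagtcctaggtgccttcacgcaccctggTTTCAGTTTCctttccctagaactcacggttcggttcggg

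The printed Ifit1, Ifit3 and Bst2 stretches each hold 2 matches, which overlap in Bst2, and those of Rsad2, Trim30a and Stat2 hold 1. Some genes also sit side by side in the RefSeq gene table. No protein-coding gene lies between Rsad2 and Cmpk2 on chromosome 12, between Ifit2 and Ifit3 on chromosome 19, or between Parp14, Dtx3l and Parp9 on chromosome 16.

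Values are log2 expression, and their number of arrays limits the precision. The interquartile range of an array was 2.90 to 3.07 on 5 narrow arrays, which were replicates 1 and 2 of WT and of CCAT2-T and replicate 1 of CCAT2-G. It was 3.15 to 3.36 on the other 13, called wider below. No narrow array came from a DRAI+ mouse. Xist, which is made from the silenced X chromosome of females, was above 10.7 in 4 mice (replicates 2, 3 and 5 of CCAT2-GT and replicate 3 of CCAT2-T), and no other mouse exceeded 4.05. Marrow stroma genes were highest in 3 mice, replicates 4 and 6 of CCAT2-GT and replicate 4 of WT.

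The 35 genes varied more between mice of 1 group than most genes did, and single mice stood high or low for most of them at once. The SD within groups lay above the 90th percentile of all tested genes for 14 of the 35, and above their median for 30. Among the 6 DRAI+ mice, CCAT2-GT replicate 3 was the highest for 18 genes and replicate 4 for 13, while replicate 6 was the lowest for 28. WT replicate 2 was the highest WT mouse for 24 genes and WT replicate 4 the lowest for 20. CCAT2-T replicate 3 was the highest of its group for 23 genes. The mean over the 35 genes was 6.98, 7.37, 6.95 and 6.70 in WT replicates 1 to 4 and 6.97, 7.20, 7.24 and 7.24 in the CCAT2-G mice. It was 7.06, 7.23, 7.38 and 7.06 in the CCAT2-T mice and 7.15, 7.08, 7.75, 7.66, 7.47 and 6.72 in the CCAT2-GT mice. The DRAI+ mice therefore held both the 3 highest means of all 18 mice and the second lowest, and their range covered that of the WT mice except for WT replicate 4.

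**Figure D1:**
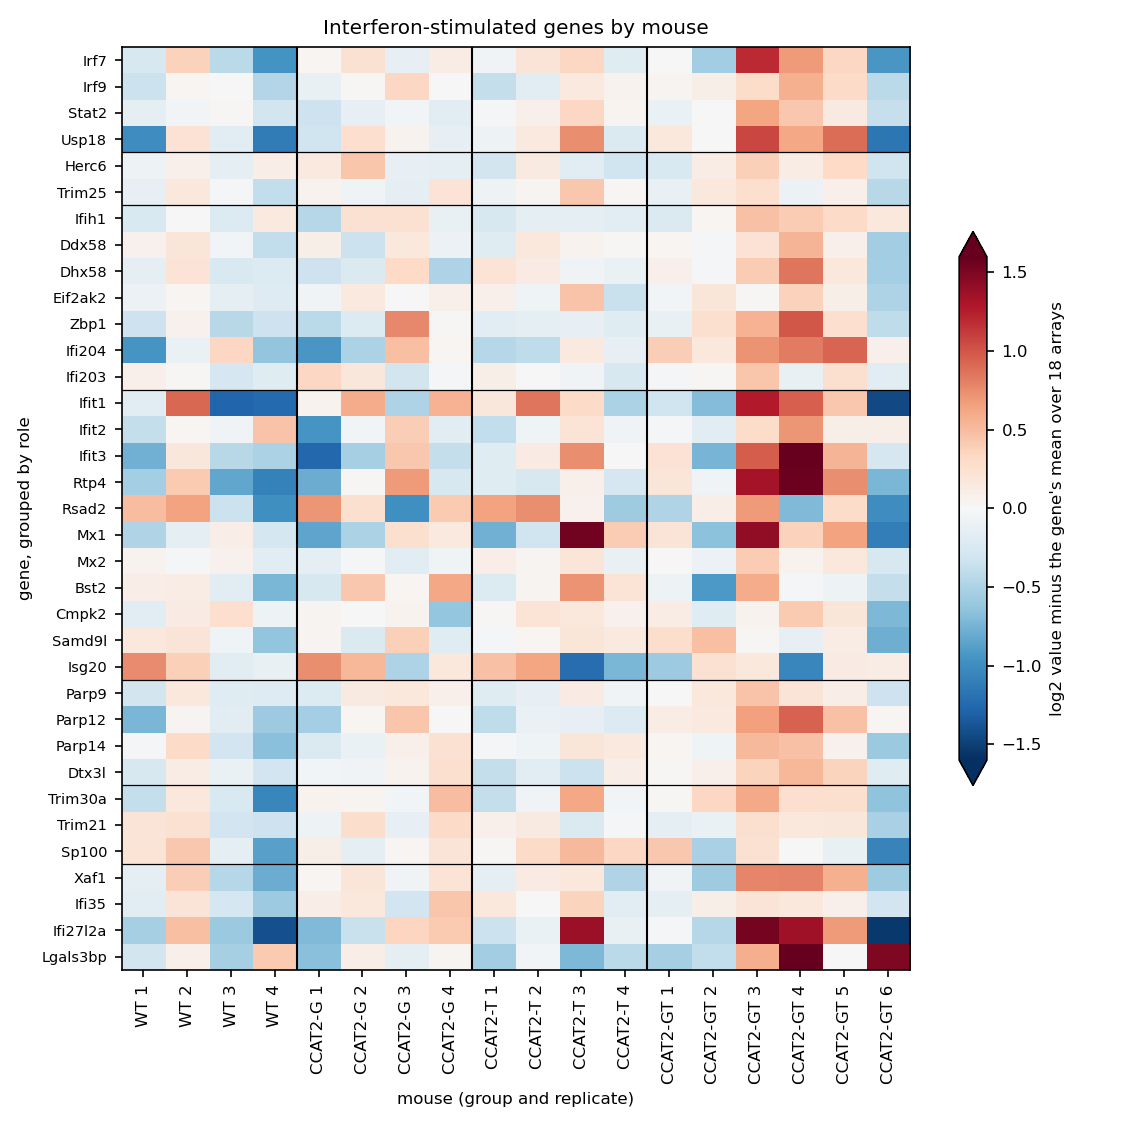
Each row is a gene, grouped by role, and each column a mouse, grouped by genotype. Colour gives the log2 value minus the gene's mean over 18 arrays, and the darkest colours also stand for values beyond the ends of the scale. CCAT2-GT replicates 3 and 4 are red for most rows, and CCAT2-GT replicate 6 and WT replicate 4 are blue for many.

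In DRAI+ against WT marrow, 31 of the 35 genes had a higher mean in the DRAI+ mice, beside 49.5% of all genes tested. Their median difference was 0.25 on the log2 scale, and that of all genes was -0.0017. Rtp4, Ifi204, Usp18 and Parp12 differed by 1.02, 0.86, 0.78 and 0.76. No gene of the set passed limma's test with Benjamini-Hochberg adjustment over all genes (smallest adjusted p = 1.00), and 0% of all genes did. Before adjustment 7 of the 35 had a p under 0.05 with a higher mean, namely Parp12, Ifi204, Rtp4, Usp18, Zbp1, Trim30a and Dtx3l, beside 1.18% of all genes. With a lower mean 0 did, beside 1.45% of all genes. Groups without overlap and higher in DRAI+ mice were found for 0 of 35, beside 0.338% of all genes. The count of 7 rests on single mice. It was 15 without CCAT2-GT replicate 6 and 12 without WT replicate 2, but 2 without WT replicate 4. It was 3 when WT replicate 1 or CCAT2-GT replicate 3, 4 or 5 was left out. The share of all genes in these fits ran from 0.882% to 1.76%. Without the 4 Xist-high arrays the median was 0.14 with 25 genes higher, and among the 13 wider arrays it was 0.39 with 32 higher. Only replicates 3 and 4 stood for WT among the wider arrays. There 7 genes had an unadjusted p under 0.05 with a higher mean, beside 4.18% of all genes. With weights for array quality, Ifi204 (adjusted p = 0.0278) and Parp12 (adjusted p = 0.0402) passed, as did 3.14% of all genes. These weights were 2.38 and 4.50 for WT replicates 1 and 2, both narrow arrays, and 0.513 and 0.385 for WT replicates 3 and 4. Ifi204 and Parp12 differed by -0.79 and -0.48 between the narrow and the wider arrays. The part of array width in the weighted result was not tested.

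**Figure D2:**
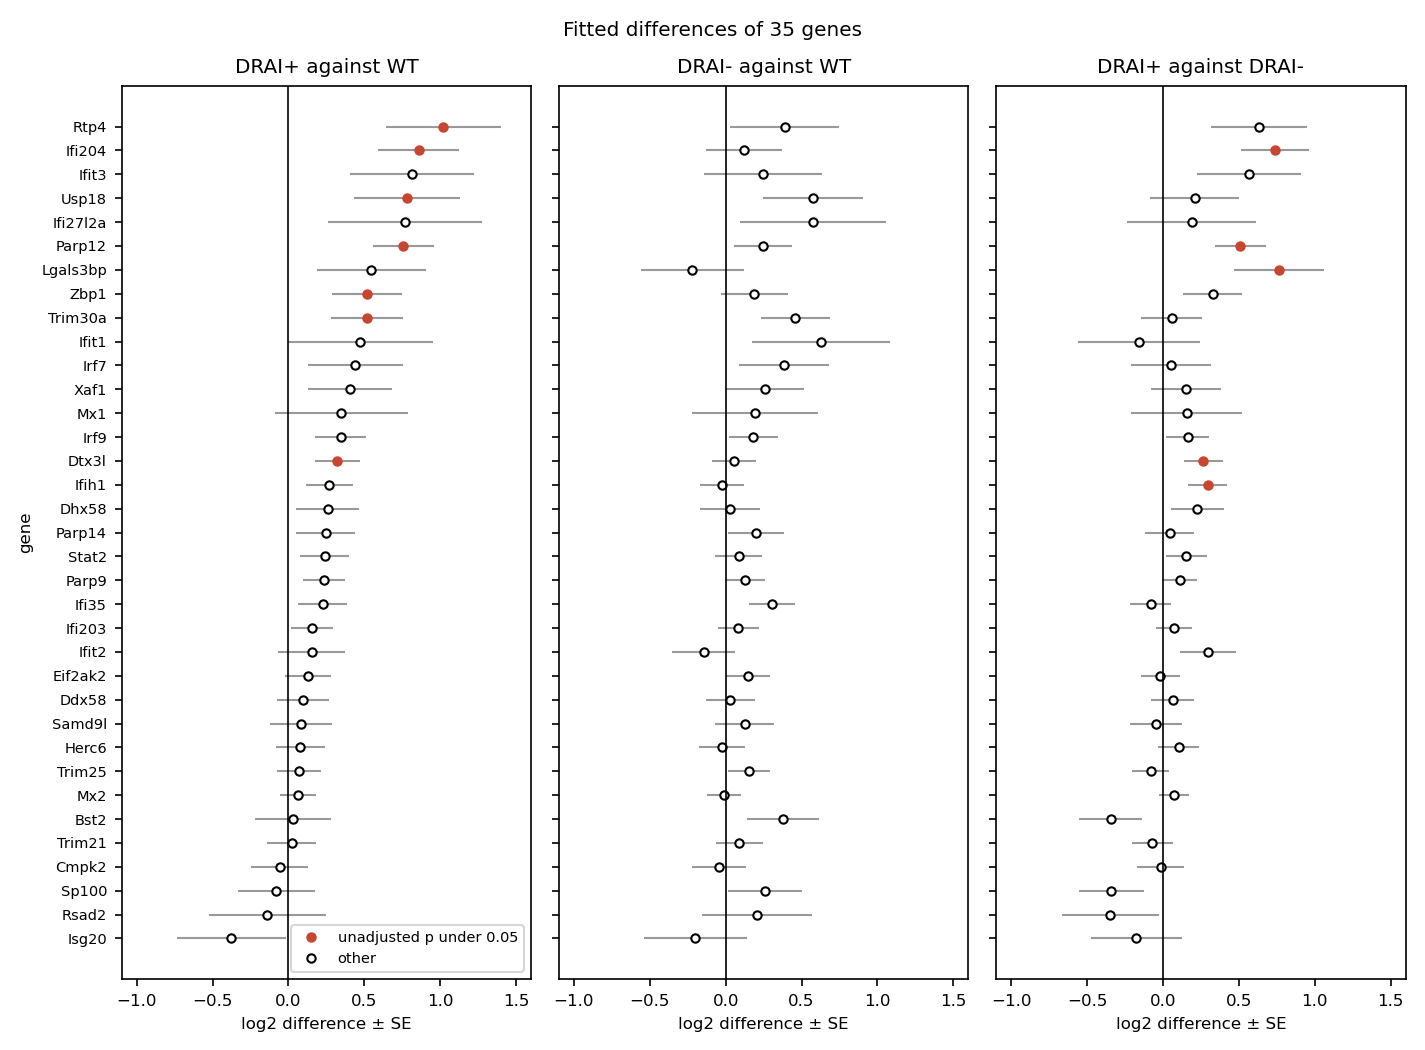
Points give the fitted log2 difference of the 35 genes and bars its SE, in DRAI+ against WT (6 and 4 mice), DRAI- against WT (8 and 4 mice) and DRAI+ against DRAI- mice. Filled points had an unadjusted p under 0.05, which 7, 0 and 5 genes did, and no gene passed after adjustment.

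Genes of interferon signalling and its feedback are described first. By the probeset that stood for each gene, all 4 (Irf7, Irf9, Stat2, Usp18) had a higher mean in DRAI+ than in WT mice. The same held in DRAI- against WT mice, but a second Stat2 probeset, given below, went the other way. Usp18, a protease that strips ISG15 from proteins and damps the receptor, was at 5.42, 6.64, 6.24 and 5.30 in the WT mice. Its values were 6.09, 6.68, 6.47 and 6.29 in the CCAT2-G mice and 6.33, 6.57, 7.16 and 6.19 in the CCAT2-T mice. In the CCAT2-GT mice Usp18 ran from 5.26 through a median of 6.81 to 7.49. Replicate 6 made up the low end, under every WT mouse, and replicates 3, 4 and 5 lay above all WT mice. Usp18 differed by 0.78 (SE 0.35, unadjusted p = 0.0366 in limma) between DRAI+ and WT and by 0.57 (SE 0.33, unadjusted p = 0.0985) between DRAI- and WT. Without the Xist-high arrays its DRAI+ against WT difference was 0.39.

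Irf7, the factor that amplifies the interferon response, was at 7.10, 7.73, 6.92 and 6.40 in the WT mice. The CCAT2-G mice had 7.38, 7.60, 7.22 and 7.48 and the CCAT2-T mice 7.29, 7.56, 7.69 and 7.16. In the CCAT2-GT mice the lowest was 6.42, the median 7.52 and the highest 8.55. The DRAI+ mice thus covered nearly all of the WT range and went beyond it, with replicate 6 at the bottom and replicate 3 at the top, while all 8 DRAI- mice lay within the WT range. Irf7 differed by 0.44 (SE 0.31) in DRAI+ and 0.39 (SE 0.30) in DRAI- against WT.

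Irf9, the DNA-binding partner of Stat2, was at 7.24, 7.62, 7.58 and 7.12 in WT mice. It was at 7.47, 7.61, 7.92 and 7.58 in CCAT2-G mice, at 7.20, 7.42, 7.74 and 7.64 in CCAT2-T mice and at 7.16 to 8.15 with a median of 7.78 in CCAT2-GT mice. Of the DRAI+ mice 5 lay above all WT mice and replicate 6 among the lowest WT values. Stat2, which acts in the response to type I and III interferons, was at 5.12, 5.21, 5.27 and 4.96 in WT, 4.92, 5.13, 5.21 and 5.07 in CCAT2-G and 5.23, 5.33, 5.59 and 5.30 in CCAT2-T mice. Its CCAT2-GT values ran from 4.89 through 5.32 to 5.88. The groups overlapped for Irf9 and Stat2, which differed by 0.34 (SE 0.17) and 0.24 (SE 0.16) in DRAI+ against WT. The second Stat2 probeset differed by -0.00409 there. In DRAI- against WT it differed by -0.23, and the first probeset by 0.085 (SE 0.15).

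For the ISG15 system only the conjugation genes could be followed. Herc6, the main ISG15 ligase of mice, and Trim25, a ubiquitin ligase that assists RIG-I, differed by 0.08 (SE 0.16) and 0.07 (SE 0.14) in DRAI+ against WT. The same genes differed, between DRAI- and WT mice, by -0.03 (SE 0.15) and 0.15 (SE 0.14).

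The 7 sensors of foreign RNA and DNA all had a higher mean in DRAI+ than in WT mice, with a median difference of 0.26. Ifi204, a DNA-binding protein of the interferon-inducible p200 family, was at 4.15, 5.00, 5.44 and 4.47 in WT mice. It was at 4.17, 4.59, 5.59 and 5.13 in the CCAT2-G mice, at 4.65, 4.70, 5.26 and 4.98 in the CCAT2-T mice, and at 5.18 to 6.03 with a median of 5.66 in the CCAT2-GT mice. Every DRAI+ mouse lay above 3 of the 4 WT mice, and 4 of 6 lay above all of them. The difference was 0.86 (SE 0.26, unadjusted p = 0.00429 in limma) against WT. Ifi204 belongs to a family of close relatives, and a further probeset is shared between its members, so which of them the probes read is uncertain. It was also lower on the narrow arrays, at 4.53 ± 0.37 (SD, n = 5), than on the wider ones, at 5.32 ± 0.47 (SD, n = 13). A block for the narrow arrays gave a DRAI+ against WT difference of 0.59.

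Zbp1, which senses Z-form nucleic acid and can trigger cell death, was at 5.64, 6.05, 5.53 and 5.65 in the WT mice. The CCAT2-G mice had 5.54, 5.75, 6.74 and 5.99, the CCAT2-T mice 5.79, 5.81, 5.85 and 5.78, and the CCAT2-GT mice 5.57 to 6.97 with a median of 6.24. Replicates 2 to 5 of the CCAT2-GT mice lay above all WT mice. Zbp1 differed by 0.52 (SE 0.23, unadjusted p = 0.0387 in limma). Ifih1, the long-RNA sensor MDA5, was at 7.10, 7.34, 7.13 and 7.50 in WT, 6.88, 7.58, 7.59 and 7.22 in CCAT2-G, and 7.09, 7.18, 7.19 and 7.17 in CCAT2-T mice. Its CCAT2-GT values were 7.11 to 7.81 with a median of 7.58, so that the groups overlapped. Ifih1 differed by 0.27 (SE 0.15) in DRAI+ and by -0.03 (SE 0.15) in DRAI- against WT. Of the other sensors, Dhx58 (LGP2), Ifi203, Eif2ak2 (the kinase PKR) and Ddx58 (RIG-I, the sensor of short RNA ends) differed by 0.26, 0.15, 0.13 and 0.09 in DRAI+ against WT, with SE of 0.14 to 0.21.

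The 11 antiviral effectors differed among themselves in direction. In DRAI+ against WT 8 had a higher and 3 a lower mean, with a median difference of 0.08. Rtp4, a chaperone of receptors that also restricts viruses, was at 7.01, 7.97, 6.72 and 6.47 in WT mice. It was at 6.75, 7.57, 8.23 and 7.30 in the CCAT2-G mice, at 7.36, 7.30, 7.63 and 7.28 in the CCAT2-T mice, and at 6.82 to 9.12 with a median of 8.02 in the CCAT2-GT mice. CCAT2-GT replicates 3, 4 and 5 lay above all WT mice and replicate 6 among the lower WT mice. Rtp4 differed by 1.02 (SE 0.38, unadjusted p = 0.0142 in limma), and by 0.66 with the mean of its 2 probesets.

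Ifit1, which binds viral RNA that lacks the host cap, was at 6.12, 7.21, 5.02 and 5.05 in WT mice. The CCAT2-G mice had 6.34, 6.88, 5.79 and 6.84, the CCAT2-T mice 6.46, 7.14, 6.59 and 5.78, and the CCAT2-GT mice 4.85 to 7.56 with a median of 6.34. WT replicate 2 lay above all DRAI- mice, and only CCAT2-GT replicates 3 and 4 lay above it. Ifit1 differed by 0.47 (SE 0.48) in DRAI+ and by 0.63 (SE 0.46) in DRAI- against WT, both smaller than the SD of 1.04 between the WT mice. Ifit3, its partner, differed by 0.81 (SE 0.41) in DRAI+ against WT, and its neighbour Ifit2 by 0.15 (SE 0.22).

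Mx1, a GTPase whose C57Bl6 allele makes no working protein, was at 4.29, 4.62, 4.89 and 4.50 in the WT mice. It was at 3.94, 4.27, 5.03 and 4.93 in CCAT2-G, 4.01, 4.46, 6.32 and 5.18 in CCAT2-T and 3.67 to 6.19 with a median of 5.07 in CCAT2-GT mice. The highest values belonged to CCAT2-T replicate 3 and CCAT2-GT replicate 3, both Xist-high. Mx1 differed by 0.35 (SE 0.44) in DRAI+ against WT and its relative Mx2 by 0.06 (SE 0.12). Bst2, the tetherin that holds budding virus at the cell surface, was at 5.79, 5.81, 5.51 and 4.95 in WT mice. Its values were 5.44, 6.12, 5.72 and 6.31 in the CCAT2-G mice, 5.47, 5.73, 6.41 and 5.91 in the CCAT2-T mice and 4.78 to 6.29 with a median of 5.61 in the CCAT2-GT mice. The DRAI+ values covered the whole WT range, and the difference was 0.03 (SE 0.25).

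Rsad2 and Isg20, named after their values were seen, had lower means in DRAI+ than in WT mice. Rsad2, the radical enzyme viperin, differed by -0.14 (SE 0.38), and Isg20, an exonuclease that degrades RNA, by -0.38 (SE 0.36). Both followed the width of the arrays: Rsad2 was at 12.4 ± 0.096 (SD, n = 5) on narrow and 11.5 ± 0.58 (SD, n = 13) on wider arrays, and Isg20 at 11.3 ± 0.17 and 10.4 ± 0.54. The part of the array width in these values was not tested. The other Rsad2 probesets differed by -0.00038 and -0.11 in DRAI+ against WT. Cmpk2, the neighbour of Rsad2 that supplies nucleotides, differed by -0.06 (SE 0.19) and Samd9l by 0.08 (SE 0.20).

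**Figure D3:**
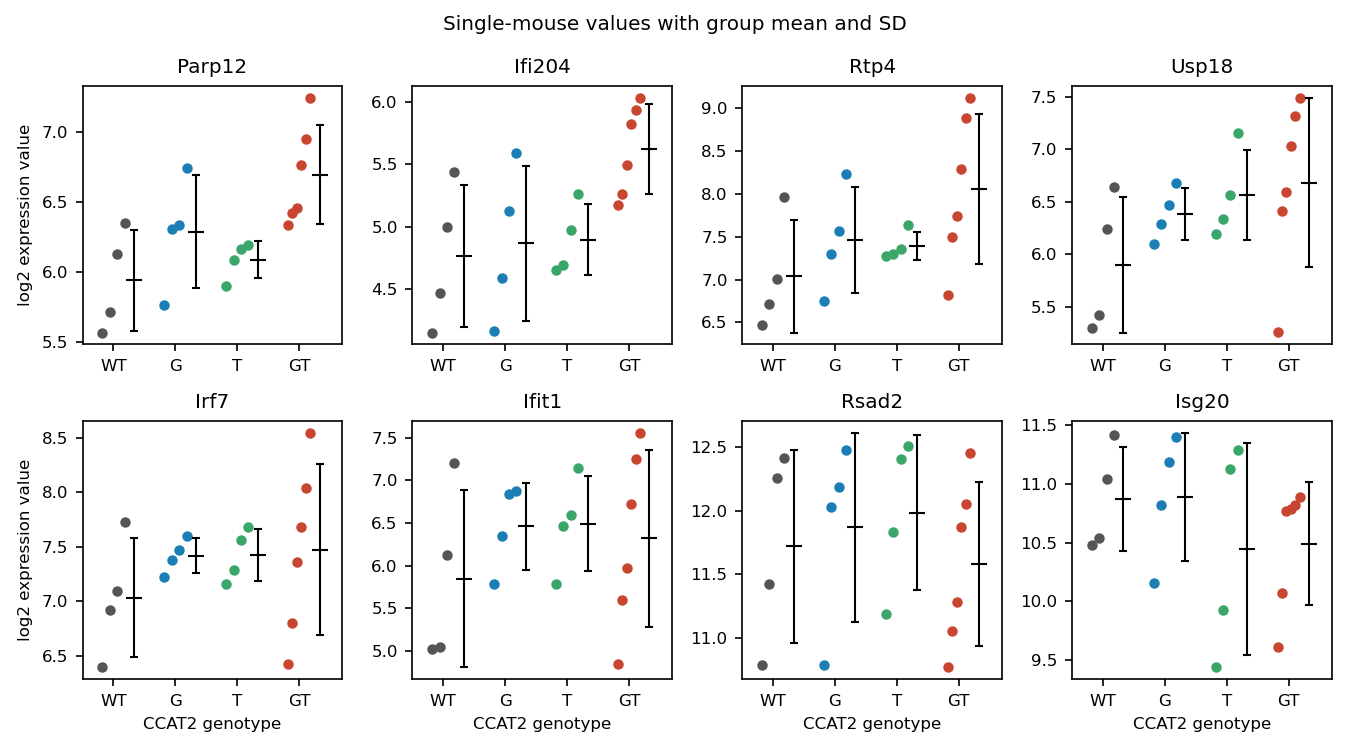
Points are single mice for 8 genes on a log2 axis that does not start at 0, and bars the group mean with SD (4 WT, 4 CCAT2-G, 4 CCAT2-T and 6 CCAT2-GT mice). For Parp12 and Ifi204 every CCAT2-GT mouse lies above the WT mean, though the groups overlap. Usp18 and Ifit1 have CCAT2-GT mice at both ends. Irf7 has them at the top and near the bottom, just above WT replicate 4. Rsad2 and Isg20 show no shift upward.

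All 4 genes of ADP-ribosylation had a higher mean in DRAI+ mice, with a median difference of 0.28 against WT. Parp12, a mono-ADP-ribosyltransferase that restricts viral translation, was at 5.57, 6.35, 6.13 and 5.72 in the WT mice. It was at 5.76, 6.34, 6.75 and 6.31 in CCAT2-G, at 5.90, 6.19, 6.17 and 6.09 in CCAT2-T and at 6.34 to 7.24 with a median of 6.61 in CCAT2-GT mice. Of the DRAI+ mice 5 lay above all WT mice, and replicate 6, at 6.34, lay just under WT replicate 2, at 6.35. Parp12 had the smallest p of the set, with a difference of 0.76 (SE 0.20, unadjusted p = 0.00136 in limma), and stayed between 0.63 and 0.89 in all alternatives run. Dtx3l, the ubiquitin ligase that works with Parp9, was at 7.14, 7.52, 7.29 and 7.09 in WT, 7.35, 7.33, 7.44 and 7.65 in CCAT2-G and 7.01, 7.21, 7.04 and 7.49 in CCAT2-T mice. Its CCAT2-GT values were 7.20 to 7.92 with a median of 7.61, of which 3 lay above all WT mice. Dtx3l differed by 0.32 (SE 0.15, unadjusted p = 0.0453 in limma), and its genome neighbours Parp14 and Parp9 by 0.25 (SE 0.20) and 0.23 (SE 0.14).

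Trim30a, a TRIM protein that curbs inflammatory signalling in mice, was at 8.12, 8.67, 8.25 and 7.45 in the WT mice. It was at 8.55, 8.54, 8.45 and 8.99 in the CCAT2-G mice, at 8.12, 8.44, 9.11 and 8.45 in the CCAT2-T mice and at 7.86 to 9.11 with a median of 8.76 in the CCAT2-GT mice. WT replicate 4 was the lowest of all 18 mice, and 4 of 6 DRAI+ mice lay above all WT mice. Trim30a differed by 0.52 (SE 0.24, unadjusted p = 0.0433 in limma), but it has close relatives and a further probeset shared with them. Trim21, an antibody receptor inside cells, and Sp100, a nuclear body protein, differed by 0.02 (SE 0.16) and -0.08 (SE 0.26).

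Among the remaining genes, Lgals3bp, a secreted glycoprotein that binds galectins, was at 6.95, 7.33, 6.72 and 7.67 in WT mice. Its values were 6.59, 7.36, 7.11 and 7.29 in CCAT2-G, 6.70, 7.21, 6.53 and 6.82 in CCAT2-T and 6.72 to 8.87 with a median of 7.55 in CCAT2-GT mice. The highest values, 8.87 and 8.75, belonged to CCAT2-GT replicates 4 and 6, which were also the DRAI+ mice highest in stroma genes. Ifi35, which controls RIG-I signalling, was at 8.82, 9.21, 8.71 and 8.42 in WT, 9.10, 9.17, 8.70 and 9.44 in CCAT2-G, 9.17, 8.99, 9.36 and 8.84 in CCAT2-T and 8.69 to 9.20 with a median of 9.09 in CCAT2-GT mice. All DRAI+ mice lay within the WT range of Ifi35, with a difference of 0.23 (SE 0.16). Ifi27l2a differed by 0.77 (SE 0.51) and Xaf1, linked to cell death, by 0.41 (SE 0.27) between DRAI+ and WT mice.

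In DRAI- against WT marrow, 28 of the 35 genes had a higher mean in the DRAI- mice, beside 50.2% of all genes, and the median difference was 0.15. No gene of the set passed in limma (smallest adjusted p = 0.999), and 0% of all genes did. Before adjustment, 0 of 35 had a p under 0.05 with a higher mean, beside 0.993% of all genes, and 0 with a lower one, beside 0.365%. The count higher became 5 among the 13 wider arrays, beside 5.08% of all genes, and 4 without WT replicate 2, beside 2.32%. Groups without overlap and higher in DRAI- mice were found for 0 of 35, beside 0.0345% of all genes. The smallest p-values in limma belonged to Trim30a at 0.46 (SE 0.23, unadjusted p = 0.0572), Ifi35 at 0.31 (SE 0.15, unadjusted p = 0.0582), Usp18 at 0.57 (SE 0.33), Bst2 at 0.37 (SE 0.24) and Ifit1 at 0.63 (SE 0.46). The direction depended on which arrays were compared. Among the 13 wider arrays 30 genes had a higher mean, with a median of 0.36, and only replicates 3 and 4 stood for WT there. Among the 5 narrow arrays, a comparison chosen after seeing the data, 9 had a higher mean, with a median of -0.070. Without WT replicate 4 the median was 0.052 with 25 higher, and Trim30a, Ifi35, Usp18 and Bst2 differed by 0.24, 0.18, 0.37 and 0.19. Ifit1 differed by 1.08 without WT replicate 2, by 0.35 without WT replicate 3 and by 0.36 without WT replicate 4.

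In DRAI+ against DRAI- marrow, 24 of the 35 genes had a higher mean in the DRAI+ mice, beside 48.3% of all genes, and the median difference was 0.10. No gene of the set passed in limma (smallest adjusted p = 0.456), and 0% of all genes did. Ifi204, Parp12, Lgals3bp, Ifih1 and Dtx3l, 5 of 35, had an unadjusted p under 0.05 with a higher mean, beside 3.84% of all genes, and 0 did with a lower mean, beside 5.73%. Groups without overlap and higher in DRAI+ mice numbered 0 of 35, beside 0.00689% of all genes. Ifi204 differed by 0.74 (SE 0.22, unadjusted p = 0.00346), Parp12 by 0.51 (SE 0.17, unadjusted p = 0.00712) and Lgals3bp by 0.77 (SE 0.30, unadjusted p = 0.0189) in limma. Among the wider arrays Ifi204 and Parp12 differed by 0.51 and 0.37. Without the stroma-rich arrays the Lgals3bp difference was 0.22. Ifih1 and Dtx3l differed by 0.29 (SE 0.13) and 0.27 (SE 0.13). Without the Xist-high arrays they differed by 0.21 and 0.15, and among the wider arrays by 0.18 and 0.19. By contrast Irf7, Trim30a and Ifit1 differed by 0.05 (SE 0.26), 0.06 (SE 0.20) and -0.16 (SE 0.40), and Sp100, Bst2 and Rsad2 by -0.34 (SE 0.21), -0.34 (SE 0.21) and -0.35 (SE 0.32). The second probesets of Sp100 and Trim30a differed by 0.088 and -0.099, each against the sign of the first. The other Rsad2 probesets differed by -0.056 and -0.33. The median was 0.0018 without CCAT2-GT replicate 3, 0.057 without replicate 5 and 0.21 without replicate 6. It was -0.013, with 16 of 35 higher, without the Xist-high arrays. The count of 5 became 1 among the wider arrays, beside 1.92% of all genes, and 1 gene had such a p with a lower mean. The count higher was 8 without CCAT2-GT replicate 6 (2.70% of all genes) and 2 without replicate 4 (2.18%). It was 3 without replicate 3 or 5 of CCAT2-GT, replicate 1 or 2 of CCAT2-T or replicate 1 of CCAT2-G. For these settings the share of all genes ran from 2.45% to 4.02%. The DRAI+ and DRAI- comparisons with WT share the 4 WT mice and are therefore not independent of each other.

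The allele comparisons gave no gene of the set that passed, against WT or between CCAT2-G and CCAT2-T mice. Against WT, 27 of 35 genes had a higher mean in CCAT2-G mice, beside 53.2% of all genes, and 29 in CCAT2-T mice, beside 50.5%. Both comparisons use the same WT mice. The median differences were 0.14 and 0.15. With array weights these medians were -0.00019 and -0.013, with 17 genes higher in each, and among the wider arrays both were 0.33, with 32 and 30 higher. The wider WT arrays were replicates 3 and 4 alone. In CCAT2-G against WT, Trim30a differed by 0.51 (SE 0.27), Ifi35 by 0.31 (SE 0.18) and Parp12 by 0.35 (SE 0.22). Usp18, Ifi35 and Trim30a differed by 0.66 (SE 0.39), 0.30 (SE 0.18) and 0.41 (SE 0.27) in CCAT2-T against WT. For that comparison Ifi35 and Trim30a differed by 0.17 and 0.18 without WT replicate 4, by 0.038 and 0.0053 with array weights and by 0.53 and 0.93 among the wider arrays. Trim30a in CCAT2-G against WT was at 0.29 without WT replicate 4, 0.22 with array weights and 0.81 among the wider arrays. The median of CCAT2-G against WT was 0.24 without WT replicate 2, and leaving out replicate 2 or 4 of WT or replicate 3 of CCAT2-T gave medians of 0.25, 0.067 and 0.090 for CCAT2-T. In CCAT2-G against CCAT2-T, 17 of 35 had a higher mean, beside 49.4% of all genes, with a median of -0.0048, and the sign of that median turned with single mice left out. Stat2 was the gene of smallest p there, at -0.28 (SE 0.17), followed by Dtx3l at 0.25 (SE 0.16) and Herc6 at 0.24 (SE 0.17). Every CCAT2-G mouse lay below every CCAT2-T mouse for Stat2, 1 of 35 genes, beside 1.13% of all genes. The nearest values were 5.21 and 5.23, and with the mean of its 2 probesets the Stat2 difference was -0.08. In limma the smallest adjusted p of the set in the 3 comparisons was 1.00, 0.928 and 0.793, and 0% of all genes passed in each. An unadjusted p under 0.05 was found for 0 of 35 in each, beside 0.917% of all genes higher and 0.655% lower in CCAT2-G against WT. The shares of all genes were 1.70% and 1.41% in CCAT2-T against WT and 4.21% and 2.08% in CCAT2-G against CCAT2-T.

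The genes that make, receive and limit interferon were taken from lists beside the 35, and 0 of them passed in the 3 comparisons of DRAI groups and WT. Of 20 interferon genes, 10 had a probeset of their own and 7 were above the limit on dim genes. In DRAI+ against WT 2 of the 7 had a higher mean, with a median of -0.04 (Ifna9 0.14, SE 0.14, and Ifna5 -0.17, SE 0.16). DRAI- mice differed from WT by 0.12 (SE 0.13) for Ifna9 and 0.13 (SE 0.17) for Ifnb1. Between DRAI+ and DRAI- mice Ifna1 differed by -0.39 (SE 0.23) and Ifnb1 by -0.21 (SE 0.15). Of 15 measured receptors, kinases, STATs and inhibitors, 11 had a higher mean in DRAI+ than in WT mice, with a median of 0.04. The receptor chains Ifnar1 and Ifnar2 differed by 0.0045 (SE 0.16) and 0.15 (SE 0.16), and the kinases Jak1 and Tyk2 by 0.04 (SE 0.16) and 0.0031 (SE 0.18). Socs3, an inhibitor of cytokine receptors, had the lowest p of this list, at 1.08 (SE 0.44, unadjusted p = 0.0243 in limma) in DRAI+ and 0.95 (SE 0.42, unadjusted p = 0.036) in DRAI- against WT. In limma Ifnar2 differed by 0.35 (SE 0.14, unadjusted p = 0.0186) between DRAI+ and DRAI-, and Ifngr1, a chain of the interferon gamma receptor, by 0.29 (SE 0.15).

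Of 15 measured sensors, adaptors and factors that induce interferon, 10 had a higher mean in DRAI+ than in WT mice, with a median of 0.05. Tlr7, an endosomal sensor of single-stranded RNA on the X chromosome, differed by 0.48 (SE 0.19, unadjusted p = 0.0234 in limma) against WT and by 0.45 (SE 0.16, unadjusted p = 0.012) against DRAI-. Its X-linked relative Tlr8 differed by 0.48 (SE 0.25) against WT and by 0.56 (SE 0.21, unadjusted p = 0.0150 in limma) against DRAI-. High Xist was found in 3 of 6 DRAI+, 1 of 8 DRAI- and 0 of 4 WT mice, and its part in these values was not tested. Tlr9, the sensor of unmethylated DNA, differed by -0.32 (SE 0.11, unadjusted p = 0.00823 in limma) between DRAI+ and DRAI-. Irf3, which induces interferon, and Irf8, a factor of dendritic cells and monocytes, differed by -0.14 (SE 0.10) and -0.10 (SE 0.30) in DRAI+ against WT. Among 5 enzymes that clear or edit nucleic acid, the largest differences from WT in DRAI+ mice were 0.25 (SE 0.24) for Samhd1 and 0.17 (SE 0.14) for Adar.

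Markers of blood cells also differed between the groups, and in whole marrow fewer cells of a type and less RNA per cell cannot be told apart. Of 10 monocyte and macrophage markers, 9 had a higher mean in DRAI+ than in WT mice (median 0.36) and 10 in DRAI+ than in DRAI- mice (median 0.42). Their summed level, taken as a mean of log2 values, ran from 7.97 to 8.67 in WT, 7.74 to 9.04 in DRAI- and 8.51 to 9.03 in DRAI+ mice. CCAT2-GT replicate 6, the DRAI+ mouse lowest in the interferon-stimulated genes, was the highest DRAI+ mouse for monocyte markers. Of 11 B-cell markers, 11 had a lower mean in DRAI+ mice than in WT (median -1.19) and than in DRAI- mice (median -1.42), with ranges of 6.64 to 8.59 in WT, 5.63 to 8.72 in DRAI- and 5.34 to 7.48 in DRAI+ mice. All 8 plasmacytoid dendritic cell markers had a lower mean in DRAI+ than in DRAI- mice (median -0.31), and in DRAI- than WT mice all 8 had a higher one (median 0.28). Their level ran from 6.02 to 7.13 in WT, 6.27 to 7.56 in DRAI- and 5.79 to 7.58 in DRAI+ mice, highest in CCAT2-GT replicate 3 and lowest in replicate 6. Of 9 megakaryocyte and platelet markers, 9 had a higher mean in DRAI+ than in DRAI- mice (median 0.70) and 8 in DRAI+ than in WT mice (median 0.47), while 9 had a lower one in DRAI- than in WT mice (median -0.31). They ran from 7.18 to 8.82 in WT, 6.10 to 8.61 in DRAI- and 6.20 to 10.3 in DRAI+ mice, highest in CCAT2-GT replicates 4 and 6. All 10 erythroid markers had a lower mean than in WT mice, both in DRAI+ (median -0.29) and in DRAI- mice (median -0.20), with ranges of 10.8 to 11.0 in WT, 10.1 to 11.2 in DRAI- and 10.3 to 11.0 in DRAI+ mice. Of 11 neutrophil and 9 T and NK cell markers, 5 of each had a higher mean in DRAI+ than in WT mice. None of these markers passed after adjustment in limma. The 5 narrow arrays, none from a DRAI+ mouse, had B-cell levels of 8.40 to 8.72 and monocyte levels of 7.74 to 8.35. On the wider WT arrays, replicates 3 and 4, B-cell levels were 6.92 and 6.64 and monocyte levels 8.41 and 8.67. Wider DRAI- arrays ran from 5.63 to 8.57 and from 8.32 to 9.04. The part of array width in the marker differences was not tested. The part of cell composition in the values of the 35 genes was not tested.

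**Figure D4:**
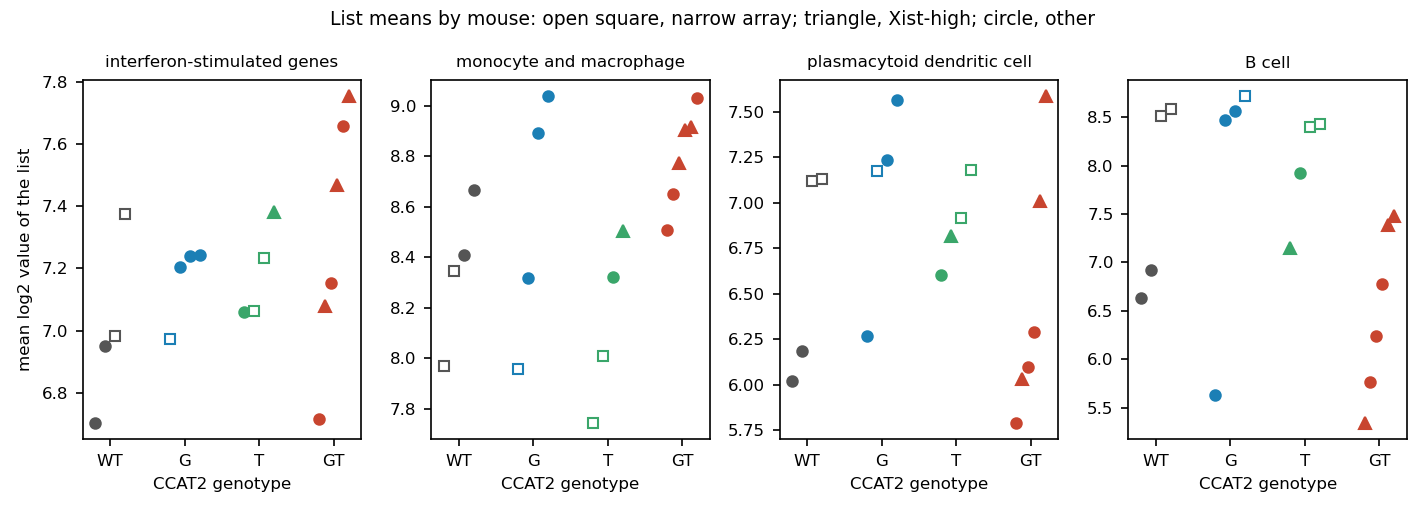
Points give each mouse's mean log2 value over the 35 interferon-stimulated genes and over 3 lists of cell markers, on axes that do not start at 0. Open squares are narrow arrays, triangles Xist-high mice and circles the rest. CCAT2-GT mice span 6.72 to 7.75 for the interferon-stimulated genes, and their monocyte values lie from 8.51 upward.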

How the data were processed

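The authors deposited log2 expression values of 45101 probesets on 18 Affymetrix arrays, 1 per mouse, normalized with RMA per the submitters' processing notes. The sources used here name no probe definition file or software version. Per the labels' protocols, Trizol RNA was made into biotin-labelled cRNA. By the platform annotation 34958 probesets had 1 symbol, 932 several and 9211 none, and only the first kind was used. Each gene was represented by its brightest probeset, and genes under the 30th percentile of probeset means (3.30) were left out.

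Differences, first group minus second, come from limma 3.58.1 (R 4.3.3), with lmFit and a trended eBayes over the 18 arrays. The model had the levels WT, DRAI- and DRAI+, or 4 genotypes where CCAT2-G and CCAT2-T were compared. The p-values are two-sided, and adjusted ones use Benjamini-Hochberg over 14505 genes with a threshold of 0.05. The procedure was tested on simulated data.

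The 37 genes, the other lists and the tests were chosen with earlier results of these data known. Differences with errors are given for the 5 genes of the set with the smallest p in each comparison between WT, DRAI- and DRAI+ (3 for the other comparisons), and values by mouse for these and for Irf7, Irf9, Stat2, Ifit1 and Mx1. From each pathway list, 2 genes of smallest p were named, with Ifnar1, Ifnar2, Jak1, Tyk2, Irf3 and Irf8. For the remaining genes of the set differences are given so that all are accounted for. Replicate numbers come from the titles, and the labels do not say whether they mark a shared litter or day. Alternatives were median centring, quantile normalization, other limits on dim genes, the mean of a gene's probesets, eBayes without trend, array weights, the compared groups alone, the replicate number as a block, the wider arrays (interquartile range of at least 3.1) alone, the narrow arrays alone or as a block, and leaving out the stroma-rich, the Xist-high or each single array.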

Additional observations from a re-analysis of the deposited data

Results flagged for a closer look

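In groups of 4 and 6 mice, 2 of the 140 combinations of gene and group held a mouse whose gap to the nearest other mouse filled most of the group's range, and chance gives about 1 in 20. Ifi27l2a was at 9.87 in CCAT2-T replicate 3, a Xist-high mouse, with the next CCAT2-T mouse at 8.40. Cmpk2 was at 7.65 in CCAT2-G replicate 4, with the next CCAT2-G mouse at 8.28.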

How the results depend on the processing

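With array weights 2 genes of the set (Ifi204, Parp12) passed in DRAI+ against WT, and 0 passed in the other settings and comparisons. These weights ranged from 0.385 for WT replicate 4 to 4.50 for WT replicate 2. In DRAI- against WT the sign turned for Ifit1 with array weights (-0.057) and among the narrow arrays alone for Trim30a (-0.022), Bst2 (-0.25) and Ifit1 (-0.013), and the cause was not tested. The median difference over the 35 genes ran from 0.14 to 0.39 in DRAI+ against WT, from -0.070 to 0.36 in DRAI- against WT and from -0.013 to 0.23 in DRAI+ against DRAI-, in all settings run. With single mice left out it ran from 0.16 to 0.36, from 0.052 to 0.23 and from 0.0018 to 0.21. With the replicate block the medians were 0.35, 0.15 and 0.23, and no gene passed. In these fits 12, 2 and 8 genes had an unadjusted p under 0.05 with a higher mean, against 7, 0 and 5 without the block. Numbers 5 and 6 occur only among CCAT2-GT mice, so under the block these mice added nothing to the differences. CCAT2-GT replicate 6 was the lowest DRAI+ mouse for 28 genes, and leaving it out alone gave 15 against WT and 8 against DRAI-. All 5 narrow arrays carried number 1 or 2, so the block also overlaps with array width. The change in counts therefore cannot be assigned to blocking. Of 24 pairs of mice with the same number 11 correlated above 0.1 (r from -0.36 to 0.67), and 6 of 18 mice matched their own number best. Pairs with different numbers were not set beside them, so these values do not decide whether the numbers pair the mice. The count of 7 was 3 with the compared groups alone (beside 1.61% of all genes) and 3 with the narrow arrays as a block (5.71%). It was 4 without the Xist-high arrays (1.99%) and 11 with array weights (10.1%). The share beside the 7 was 1.18%. In CCAT2-G against CCAT2-T the median ran from -0.051 to 0.093. Arrays give no read depth, and their number limits the precision.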
